A study of Mus musculus with 6 samples.

Results

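The genes described here are the ligands, receptors and binding proteins of the insulin-like growth factor (IGF) system, chosen by symbol as 10 of the 20327 gene symbols counted: *Igf1*, *Igf2*, *Igf1r*, *Igf2r*, *Igfbp2*, *Igfbp3*, *Igfbp4*, *Igfbp5*, *Igfbp6* and *Igfbp7*. IGF ligands signal through the receptor tyrosine kinase IGF1R, and IGF2R takes IGF2 up for degradation. The binding proteins hold most extracellular IGF away from the receptor, and proteases that cut them release it. In the intestine, mesenchymal cells are a local source of these ligands and binding proteins.

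The study compared IL-11+ with IL-11- fibroblasts to characterize the IL-11-producing cells that appear in colitis. Both groups were stromal cells of the colon of C57BL/6 *Il11-Egfp* mice aged 9 to 15 weeks, transgenic for a bacterial artificial chromosome in which *Egfp* lies in the *Il11* gene. All mice drank 1.5% dextran sodium sulfate (DSS), which injures the colonic epithelium, for 5 days and then water, and cells were sorted on day 7. Cells lacking Ter119, CD45, CD31 and EpCAM, the surface markers of red cells, leukocytes, endothelium and epithelium, were divided into EGFP+ (IL-11+, n = 3 libraries) and EGFP- (IL-11-, n = 3 libraries). EGFP reports a transgene and not IL-11 itself, the EGFP+ sort was not pure, and the EGFP- gate takes any stromal cell without the reporter. 5′Tag-seq, which counts tags from the 5′ side of polyA cDNA, gave 1022851 to 1169817 tags per library. Levels are tag counts scaled to the library totals with trimmed-mean factors (normalized CPM). Genes were called at an adjusted p below 0.05 with more than a 2-fold difference, and log2 fold changes are IL-11+ over IL-11-.

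*Il11* itself stood at 26.7, 48.1 and 73.1 CPM in IL-11- replicates 1, 2 and 3, and at 1438, 743 and 2535 CPM in IL-11+ replicates 1, 2 and 3. All IL-11+ libraries lay above all IL-11- libraries, as the labels state, and the order 1, 2, 3 of the replicates is kept below. *Il11* was 31.5-fold higher in IL-11+ fibroblasts (log2 fold change 4.98, SE 0.394; adjusted p = 1.01e-07, edgeR's quasi-likelihood test, Benjamini-Hochberg adjusted). All 10 fibroblast markers were measured in both groups, and their summed level was 22828, 22909 and 25273 CPM in IL-11- and 43103, 34860 and 30929 CPM in IL-11+ libraries. The most abundant was *Dcn*, the matrix proteoglycan decorin. *Col3a1*, a fibrillar collagen (log2 fold change 1.04), and *Pdpn*, the surface marker podoplanin (log2 fold change 1.06), were called higher. Of the other 8, *Dcn* and *Thy1* were higher (log2 fold changes 0.67 and 0.88) and *Lum* was lower (log2 fold change −0.64), each past the adjusted p but not the fold threshold (adjusted p = 0.0462, 0.00832 and 0.0378, edgeR's quasi-likelihood test, Benjamini-Hochberg adjusted), and 5 passed neither. These 3 passes were not kept in all 19 alternatives, where the adjusted p reached 0.264 for *Dcn*, 0.0768 for *Thy1* and 0.186 for *Lum*. *Col3a1* was not called with library size scaling or without IL-11- replicate 1 (log2 fold change 0.83), nor *Pdpn* with library size scaling, without IL-11- replicate 1 (log2 fold change 0.94) or without IL-11+ replicate 1 (log2 fold change 0.97). *Thy1* was called higher without IL-11- replicate 3 (log2 fold change 1.19) or IL-11+ replicate 2 (log2 fold change 1.01).

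Of the 10 IGF genes, 9 had enough tags to be tested, at least 10 in at least 3 libraries. *Igfbp4* and *Igfbp5* rose in IL-11+ fibroblasts, *Igf2*, *Igfbp3* and *Igfbp6* fell, and *Igf1*, *Igf1r*, *Igf2r* and *Igfbp7* were not called. Thus 2 of 9 were called higher, where 3.44% of all 9334 tested genes were (321 genes), and 3 of 9 were called lower, where 6.37% were (595 genes). For 5 of 9 the libraries of both groups were separated without overlap, against 31.2% of all tested genes. The 10 genes were chosen with earlier results of these data known, so these shares are descriptive and do not test the set. The median log2 fold change was −0.04 over these 9 genes and −0.01 over all tested genes. The share of ribosomal and mitochondrial RNA was 14.5%, 15.1% and 13.8% in IL-11- and 12.1%, 11.4% and 11.1% in IL-11+ libraries, and 16028, 15845 and 15925 against 15196, 14993 and 15167 symbols had a tag. Both measures were lower in every IL-11+ library. With these RNAs removed all 9 tested IGF genes kept their calls, and the part of the number of symbols was not tested. In RNA pooled from many cells, fewer cells of a type and less RNA per cell cannot be told apart.

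**Figure D1:**
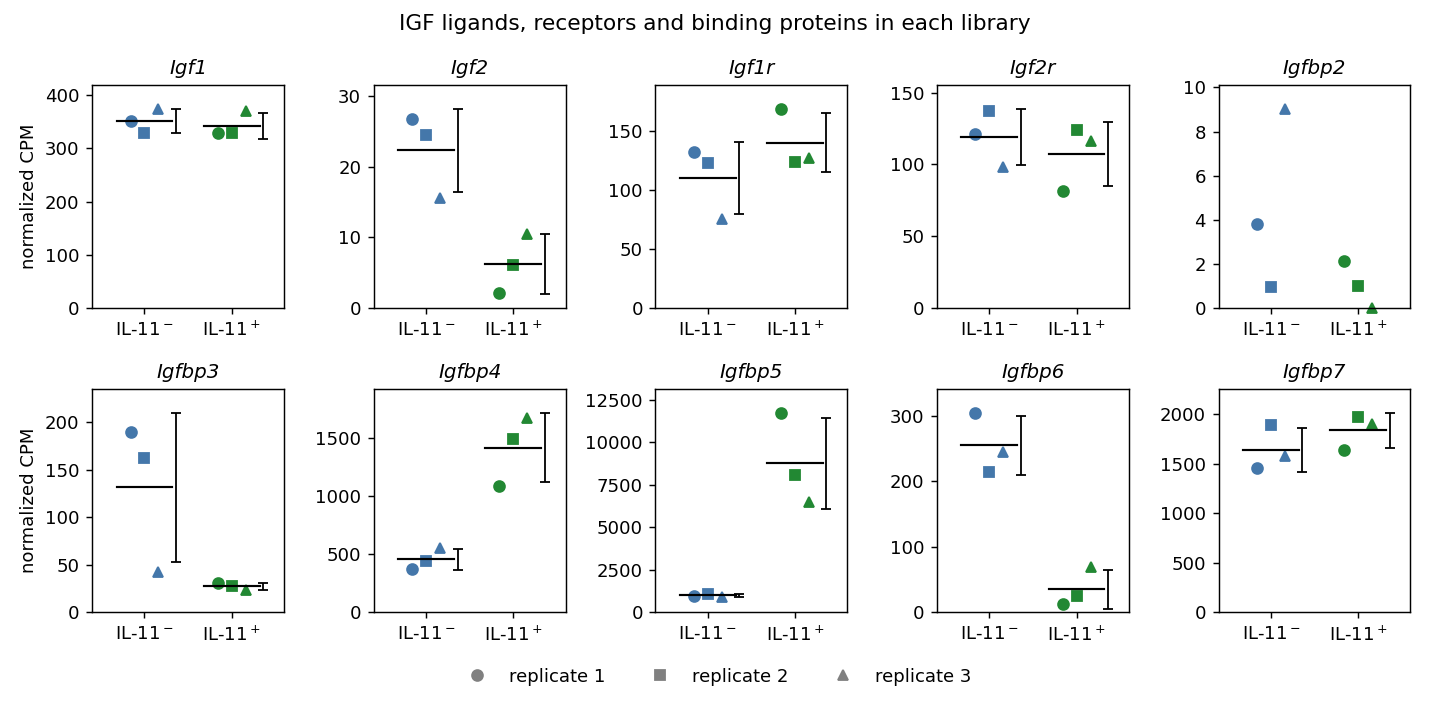
Normalized level (CPM, linear axes from 0) of each of the 10 IGF genes, IL-11- at the left and IL-11+ at the right of each panel; each point is 1 library, horizontal lines are means and bars at the side are SDs (n = 3), drawn for tested genes. *Igfbp4* and *Igfbp5* lie higher, and *Igf2*, *Igfbp3* and *Igfbp6* lower, in all 3 IL-11+ libraries than in any IL-11- library, while *Igfbp2* stays at or under 11 tags.

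Of the ligands, *Igf1*, the growth hormone-responsive IGF that mesenchymal cells also make locally, was at 351, 329 and 374 CPM in IL-11- and 329, 329 and 371 CPM in IL-11+ libraries. The groups overlapped, and all 6 libraries lay within a narrow range. The means were 352 ± 22.8 CPM in IL-11- and 343 ± 24.4 CPM in IL-11+ fibroblasts (SD, n = 3). The log2 fold change was −0.04 with a 95% confidence interval from −0.37 to 0.30 (adjusted p = 0.919, edgeR's quasi-likelihood test, Benjamini-Hochberg adjusted), an interval that does not reach a change of 2-fold in either direction.

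*Igf2*, the imprinted fetal growth factor, had few tags in all libraries, with 28, 26 and 19 tags in the IL-11- libraries against 2, 6 and 11 in the IL-11+ libraries. These were 26.7, 24.5 and 15.6 CPM and 2.12, 6.09 and 10.5 CPM. Every IL-11+ library was below every IL-11- library, and replicate 3 was the lowest IL-11- and the highest IL-11+ library. Only 1 IL-11+ library reached 10 tags, so *Igf2* passed the filter through the IL-11- libraries; the other 8 tested IGF genes had at least 10 tags in every library. *Igf2* was 3.44-fold lower in IL-11+ fibroblasts (log2 fold change −1.78, SE 0.445; adjusted p = 0.00853, edgeR's quasi-likelihood test, Benjamini-Hochberg adjusted). Without IL-11+ replicate 3 the log2 fold change of *Igf2* was −2.38. With DESeq2 and the replicate number as a block, an alternative chosen after seeing the data, *Igf2* was not called (adjusted p = 0.0604; 0.000617 to 0.0604 over 19 alternatives). *Igf2* lies at chr7:142650766-142666816 on the minus strand (GRCm38). The overlapping same-strand gene *Gm49394* shares 28.7% of the 50-base windows in the first 300 bases of the *Igf2* transcripts, so tags of these genes may not be separable. None of the other 9 IGF genes shared such a window with another gene.

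Both receptors were measured in all libraries. *Igf1r*, which encodes the signalling receptor, was at 132, 122 and 75.5 CPM in IL-11- and 169, 124 and 127 CPM in IL-11+ libraries. The groups overlapped, and IL-11- replicate 3 was the lowest. The log2 fold change of *Igf1r* was 0.35 (95% confidence interval −0.09 to 0.79; adjusted p = 0.305, edgeR's quasi-likelihood test, Benjamini-Hochberg adjusted). *Igf2r*, the mannose 6-phosphate receptor that clears IGF2, was at 121, 138 and 98.5 CPM in IL-11- and 81.6, 124 and 116 CPM in IL-11+ libraries. Here too the groups overlapped, with a log2 fold change of −0.15 (95% confidence interval −0.55 to 0.26; adjusted p = 0.694 in the same edgeR quasi-likelihood test, Benjamini-Hochberg adjusted).

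Among the binding proteins, *Igfbp5*, whose product also binds extracellular matrix, was at 965, 1069 and 926 CPM in IL-11- libraries. It reached 11724, 8093 and 6480 CPM in IL-11+ libraries. The lowest IL-11+ library was far above the highest IL-11- library, and the IL-11+ libraries differed more among themselves, replicate 1 being the highest. The means were 987 ± 74.0 CPM in IL-11- and 8766 ± 2686 CPM in IL-11+ fibroblasts (SD, n = 3). *Igfbp5* rose 8.88-fold (log2 fold change 3.15, SE 0.225; adjusted p = 3.09e-08, edgeR's quasi-likelihood test, Benjamini-Hochberg adjusted).

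*Igfbp4*, which encodes an inhibitory binding protein and a main substrate of the protease PAPP-A, was at 373, 440.0 and 554 CPM in IL-11- and 1090, 1494 and 1668 CPM in IL-11+ libraries. The groups did not overlap, and in both of them replicate 1 was the lowest and replicate 3 the highest. The means were 456 ± 91.5 CPM in IL-11- and 1417 ± 297 CPM in IL-11+ fibroblasts (SD, n = 3). *Igfbp4* rose 3.11-fold (log2 fold change 1.64, SE 0.199; adjusted p = 1.11e-05, edgeR's quasi-likelihood test, Benjamini-Hochberg adjusted).

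*Igfbp3*, which encodes the main IGF carrier of serum, was at 190.0, 162 and 42.7 CPM in IL-11- and 30.7, 27.4 and 23.8 CPM in IL-11+ libraries. The IL-11+ libraries were close together, whereas IL-11- replicate 3 was well below the other IL-11- libraries and yet above every IL-11+ library. The means were 132 ± 78.2 CPM in IL-11- and 27.3 ± 3.45 CPM in IL-11+ fibroblasts (SD, n = 3). *Igfbp3* was 4.77-fold lower in IL-11+ fibroblasts (log2 fold change −2.26, SE 0.388; adjusted p = 4.13e-04, edgeR's quasi-likelihood test, Benjamini-Hochberg adjusted).

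*Igfbp6*, whose product prefers IGF2 to IGF1, was at 305, 215 and 246 CPM in IL-11- and 12.7, 24.4 and 68.7 CPM in IL-11+ libraries. All IL-11+ libraries were lower, replicate 3 being the highest of them. The means were 255 ± 45.6 CPM in IL-11- and 35.2 ± 29.5 CPM in IL-11+ fibroblasts (SD, n = 3). *Igfbp6* was 7.10-fold lower in IL-11+ fibroblasts (log2 fold change −2.83, SE 0.338; adjusted p = 9.35e-06, edgeR's quasi-likelihood test, Benjamini-Hochberg adjusted). Without IL-11+ replicate 3 the log2 fold change of *Igfbp6* was −3.76.

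*Igfbp7*, which encodes a secreted relative with low affinity for IGF, was at 1458, 1892 and 1576 CPM in IL-11- and 1642, 1973 and 1904 CPM in IL-11+ libraries. The groups overlapped, and the log2 fold change was 0.16 (95% confidence interval −0.20 to 0.52; adjusted p = 0.598, edgeR's quasi-likelihood test, Benjamini-Hochberg adjusted). *Igfbp2* was counted 4, 1 and 11 times in the IL-11- libraries against 2, 1 and 0 times in the IL-11+ libraries, too few to be tested. Its gene ends 5457 bases from that of *Igfbp5* on chromosome 1, on the opposite strand (*Igfbp2* at chr1:72824503-72852474 on the plus strand, *Igfbp5* at chr1:72857932-72874884 on the minus strand, GRCm38), so these neighbours differed in that *Igfbp5* had at least 6795 tags in each IL-11+ library and *Igfbp2* at most 2.

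Many markers of other stromal cells were lower in IL-11+ fibroblasts, as were *Igf2*, *Igfbp3* and *Igfbp6*. Of 9 smooth muscle markers, *Acta2*, *Myh11*, *Tagln* and *Myl9* had at least 10 tags in every library and were called lower. The other 5 were called lower too, but they passed the filter on low tags through the IL-11- libraries, where they were high. One of these, *Cnn1* (67, 95 and 130 against 0, 1 and 5 tags), could not be tested once any IL-11- library was left out. The summed level of the 9 was 2735, 3372 and 4233 CPM in IL-11- and 107, 178 and 359.5 CPM in IL-11+ libraries. In IL-11- libraries the most abundant was *Myh11*, smooth muscle myosin (log2 fold change −4.55, and −5.63 without IL-11+ replicate 3). In IL-11+ libraries *Myh11* (19.1, 18.3 and 80.1 CPM) was below *Acta2* (24.4, 36.6 and 88.7 CPM) and *Tagln* (25.4, 46.7 and 82.0 CPM). Among IL-11+ libraries replicate 1 was lowest and replicate 3 highest for the summed level, as for *Igf2* and *Igfbp6*, whereas *Igfbp3* was highest in replicate 1 and lowest in replicate 3. Among IL-11- libraries replicate 3 was highest for the sum and lowest for *Igf2* and *Igfbp3*, whereas *Igfbp6* was lowest in replicate 2.

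Of the 3 markers of interstitial cells of Cajal, pacemaker cells of the gut, *Etv1* had at least 10 tags in every library and was called lower, but not without IL-11- replicate 1 (log2 fold change −0.93) or by DESeq2 with the replicate block. *Ano1* and *Kit* were called lower after passing the filter through the IL-11- libraries. *Kit* (63, 34 and 69 against 0, 0 and 7 tags) could not be tested once any IL-11- library was left out. The log2 fold changes were −4.34 for *Kit* and −4.59 for *Ano1*. Without IL-11+ replicate 3 the IL-11+ group held 0 and 0 tags of *Kit* and 1 and 0 of *Ano1*. Both fitted values were then lower still, but on so few tags they give no measured size. The summed level of the 3 markers was 271, 168 and 258 CPM in IL-11- and 21.2, 20.3 and 50.5 CPM in IL-11+ libraries. *Ano1* was the most abundant in IL-11- libraries. In IL-11+ libraries it was *Etv1*, at 20.1, 20.3 and 29.6 CPM against 1.06, 0 and 14.3 CPM for *Ano1*.

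Of 8 pericyte markers 7 were tested, and they did not move together. *Rgs5* and *Cspg4*, with at least 10 tags in every library, were called lower, while *Abcc9* and *Kcnj8* were higher (log2 fold changes 0.66 and 0.71) and passed the adjusted p but not the fold threshold (adjusted p = 0.0167 and 0.0394, edgeR's quasi-likelihood test, Benjamini-Hochberg adjusted). Over the 19 alternatives the adjusted p reached 0.0907 for *Abcc9* and 0.185 for *Kcnj8*. *Pdgfrb* passed neither. *Notch3* (69, 57 and 67 against 4, 0 and 7 tags) and *Ndufa4l2* (21, 36 and 29 against 3, 1 and 1 tags) were called lower, but both passed the filter through the IL-11- libraries alone, and neither could be tested once any of these was left out. The pericyte sum was 2653, 2276 and 2055 CPM in IL-11- and 1072, 896 and 795 CPM in IL-11+ libraries. *Rgs5* was the most abundant in IL-11- libraries, at 1863, 1602 and 1478 CPM. In IL-11+ libraries *Rgs5* was at 197, 177 and 196 CPM, below *Abcc9* at 497, 397 and 356 CPM. Of the enteric glia markers, *Gfap* had 22, 23 and 26 tags in the IL-11- libraries against 1, 0 and 1 in the IL-11+ libraries, having passed the filter through the IL-11- libraries alone, and *S100b* and *Sox10* had no tag in any IL-11+ library. No marker of the endothelium, epithelium, leukocytes, mesothelium or red cells passed the filter. With a mean of at least 10 tags as the filter 4 of 5 red cell markers were called lower, and with no filter 4 of 5 red cell and 2 of 6 mesothelial markers. The endothelial sum was 20.1, 14.1 and 19.7 CPM in IL-11- and 2.12, 10.2 and 9.54 CPM in IL-11+ libraries, with *Plvap* the most abundant. The epithelial sum was 5.73, 2.83 and 23.0 CPM and 0, 2.03 and 4.77 CPM, with *Krt8* the most abundant. These sums stayed low in both groups. For these and for leukocytes, mesothelium and red cells, the marker named is the most abundant over all libraries together, not in each group. The leukocyte sum was 19.1, 24.5 and 17.2 CPM and 21.2, 14.2 and 3.81 CPM, with *Cd68* the most abundant, and the mesothelial sum was 15.3, 5.65 and 17.2 CPM and 1.06, 0 and 4.77 CPM, with *Wt1* the most abundant. The red cell sum, led by *Hbb-bs*, was 90.7, 0 and 305 CPM and 19.1, 2.03 and 19.1 CPM, highest in IL-11- replicate 3. The part of smooth muscle, interstitial cells of Cajal, pericytes and glia in the levels of *Igf2*, *Igfbp3* and *Igfbp6* was not tested.

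The proteases that cut IGF binding proteins, and the inhibitors of these proteases, included 8 genes, of which 7 were tested. *Pappa*, *Pappa2*, *Stc1* and *Adam12* were called higher, *Stc2* and *Htra1* were called lower, and *Adam9* was not called (of all tested genes 3.44% were called higher and 6.37% lower). This list too was chosen with earlier results of these data known, so its share of calls does not test it. *Adam28* had at most 3 tags in any library, and *Stc1*, *Stc2* and *Adam12* passed the filter through the group where they were higher.

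*Pappa* encodes PAPP-A, a secreted metalloprotease that cleaves IGFBP4 and IGFBP5. It was at 586, 348 and 269 CPM in IL-11- and 1883, 1234 and 1150 CPM in IL-11+ libraries. The groups did not overlap, and replicate 1 was the highest in both. *Pappa* rose 3.55-fold (log2 fold change 1.83, SE 0.252; adjusted p = 4.34e-05, edgeR's quasi-likelihood test, Benjamini-Hochberg adjusted). *Pappa2*, which encodes a relative that cleaves IGFBP3 and IGFBP5, was at 46.8, 61.2 and 87.9 CPM in IL-11- and 312, 227 and 144 CPM in IL-11+ libraries. Again the groups did not overlap, and *Pappa2* rose 3.45-fold (log2 fold change 1.79, SE 0.258; adjusted p = 6.81e-05 in the same edgeR quasi-likelihood test, Benjamini-Hochberg adjusted). Of its 50-base windows 17.3% were shared with other genes, so part of its tags may not be separable from theirs. In IL-11+ libraries *Pappa*, *Pappa2* and *Igfbp5* had the same order, with replicate 1 highest and replicate 3 lowest, as had the fibroblast marker *Dcn*.

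*Adam12*, a membrane-anchored metalloprotease that cuts IGFBP3 and IGFBP5, was at 8.59, 22.6 and 23.0 CPM in IL-11- and 62.5, 50.8 and 30.5 CPM in IL-11+ libraries. All IL-11+ libraries were higher, and *Adam12* rose 2.61-fold (log2 fold change 1.38, SE 0.336; adjusted p = 0.00738, edgeR's quasi-likelihood test, Benjamini-Hochberg adjusted). *Htra1*, a secreted serine protease whose substrates include IGFBP5, was at 123, 187 and 155 CPM in IL-11- and 58.3, 81.2 and 70.6 CPM in IL-11+ libraries. All IL-11+ libraries were lower, and *Htra1* was 2.21-fold lower (log2 fold change −1.14, SE 0.196; adjusted p = 4.02e-04, edgeR's quasi-likelihood test, Benjamini-Hochberg adjusted). *Adam9*, another metalloprotease of the family, had a log2 fold change of 0.27 (95% confidence interval −0.08 to 0.61).

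*Stc1* and *Stc2* encode stanniocalcins, which inhibit PAPP-A. *Stc1* was counted 16, 6 and 8 times in the IL-11- libraries against 32, 14 and 23 times in the IL-11+ libraries. The groups overlapped, IL-11- replicate 1 being above IL-11+ replicate 2. Within each replicate number the IL-11+ library was the higher. With the replicate block the log2 fold change was 1.37 (adjusted p = 0.00471, edgeR's quasi-likelihood test, Benjamini-Hochberg adjusted). The log2 fold change of *Stc1* was 1.35 (SE 0.425; adjusted p = 0.0357, edgeR's quasi-likelihood test, Benjamini-Hochberg adjusted). *Stc1* lost its call in 8 of 19 alternatives: with scaling by library size, DESeq2 with and without the replicate block, tags thinned to the smallest library, and without IL-11- replicate 2 (adjusted p = 0.169), IL-11- replicate 3 (adjusted p = 0.139), IL-11+ replicate 1 (adjusted p = 0.187) or IL-11+ replicate 3 (adjusted p = 0.0517), against 0.00441 to 0.187 over all alternatives of edgeR and DESeq2. *Stc2* was counted 24, 42 and 23 times in the IL-11- libraries against 10, 12 and 2 times in the IL-11+ libraries, and the groups did not overlap. Its log2 fold change was −1.72 (SE 0.454; adjusted p = 0.0127, edgeR's quasi-likelihood test, Benjamini-Hochberg adjusted). *Stc2* was not called without IL-11- replicate 2 (log2 fold change −1.36) or without IL-11+ replicate 3 (log2 fold change −1.23).

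**Figure D2:**
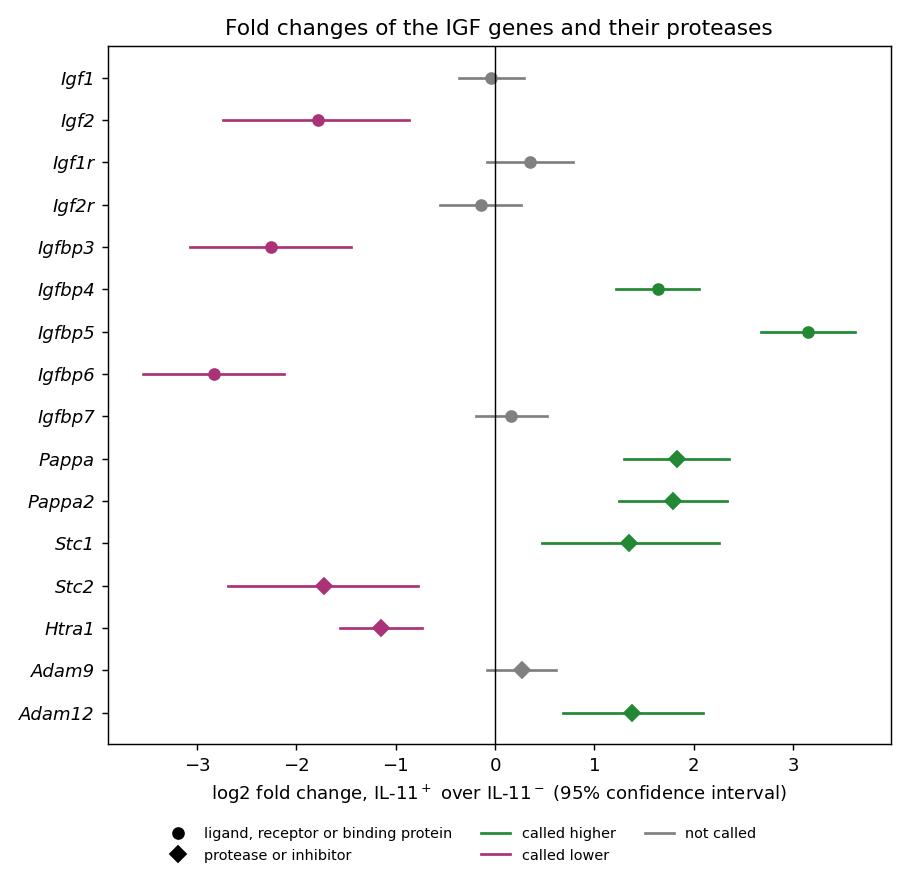
Log2 fold change (IL-11+ over IL-11- fibroblasts, n = 3 libraries each) of the 9 tested IGF genes (circles) and the 7 tested proteases and inhibitors (diamonds); lines are 95% confidence intervals and colours mark the call. *Igfbp5*, *Igfbp4*, *Pappa*, *Pappa2*, *Stc1* and *Adam12* lie on the higher side, *Igf2*, *Igfbp3*, *Igfbp6*, *Stc2* and *Htra1* on the lower side, and the intervals of the genes not called include 0.

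No tested gene of the lists from the receptors to FOXO and mTOR was called; with 3.44% of all tested genes called higher and 6.37% lower, few calls would be expected in lists of this size, and nothing is read from their absence. Of 10 receptors and adaptors 7 were tested and 0 were called by edgeR or DESeq2, while 3 had an unadjusted p under 0.05 in edgeR (median log2 fold change −0.14). Without a filter on low genes 1 gene of this list was called lower. *Irs2*, the insulin receptor substrate that docks PI3K, was at 169.7 ± 36.0 CPM in IL-11- and 130.1 ± 13.6 CPM in IL-11+ fibroblasts (SD, n = 3), with a log2 fold change of −0.38. *Shc1*, an adaptor toward Ras, had a log2 fold change of 0.60 and passed the adjusted p but not the fold threshold (adjusted p = 0.0286, edgeR's quasi-likelihood test, Benjamini-Hochberg adjusted; up to 0.162 over 19 alternatives of edgeR and DESeq2). *Grb10*, an adaptor that restrains insulin and IGF1 receptor signalling, had a log2 fold change of −0.58. Of 19 genes from PI3K to FOXO and mTOR 16 were tested and 0 were called by edgeR or DESeq2, while 2 had an unadjusted p under 0.05 in edgeR (median log2 fold change 0.05). *Pik3r1*, a regulatory subunit of PI3K named after its values were seen, passed the adjusted p but not the fold threshold (log2 fold change −0.86; adjusted p = 0.00196 in the same edgeR quasi-likelihood test, Benjamini-Hochberg adjusted). The log2 fold changes of *Rheb*, the GTPase that activates mTOR, and of the kinase gene *Akt2* were 0.09 and 0.16.

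Of the 6 genes of the growth hormone axis, which sets *Igf1* transcription, all were tested and *Stat5a* was called higher (median log2 fold change 0.04). Of all tested genes 3.44% were called higher and 6.37% lower, and the call of *Stat5a* is not read as a result about the axis. *Stat5a*, a transcription factor of growth hormone and cytokine receptors, was at 16.2, 16.0 and 13.1 CPM in IL-11- and 48.8, 48.7 and 29.6 CPM in IL-11+ libraries. The groups did not overlap, and *Stat5a* rose 2.79-fold (log2 fold change 1.48, SE 0.292; adjusted p = 0.00140, edgeR's quasi-likelihood test, Benjamini-Hochberg adjusted). The log2 fold changes were 0.03 for *Ghr*, the growth hormone receptor, 0.05 for its feedback inhibitor *Socs2*, and −0.41 for *Stat5b*. *Jak2*, the kinase of that receptor, and the feedback inhibitor *Cish*, both named after their values were seen, were called only when a library was left out: *Jak2* without IL-11+ replicate 3 (log2 fold change 1.02 in place of 0.62), and *Cish* without IL-11- replicate 3 (log2 fold change −1.29; adjusted p = 0.0824 by edgeR's test with all libraries). Of 7 relatives and RNA partners, 5 were among the symbols used, and *Igf2bp2*, which encodes an mRNA-binding protein, was the only one tested (log2 fold change 0.29, not called).

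Among the other 9325 tested genes, those most like *Igfbp5* over the 6 libraries by Pearson's r of log2 CPM were *Cd80* (r = 0.997), *Col12a1* (r = 0.996) and *Rnf149* (r = 0.996). Their own log2 fold changes were 2.19, 2.90 and 1.49. Most like *Igfbp6* were *Cebpd* (r = 0.998), *Zbtb20* (r = 0.997) and *Rcan2* (r = 0.996), with log2 fold changes of −0.94, −0.30 and −1.77. The 6 points fall into 2 groups, so these values describe mostly the difference between the groups.

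The promoters of the 4 called binding protein genes are shown because these related genes moved in opposite directions. The 250 bases before the RefSeq start were read from GRCm38.p6 and searched on both strands for TGANTCA (the AP-1 motif), TTCNNNGAA (a STAT motif), TATAAA and CCAAT. Capitals mark every match, and the matches do not overlap each other. *Igfbp5* (chr1:72874866-72875115, minus strand) and *Igfbp4* (chr11:99040994-99041243, plus strand) rose, and *Igfbp3* (chr11:7213924-7214173, minus strand) and *Igfbp6* (chr15:102143936-102144185, plus strand) fell.
Igfbp5: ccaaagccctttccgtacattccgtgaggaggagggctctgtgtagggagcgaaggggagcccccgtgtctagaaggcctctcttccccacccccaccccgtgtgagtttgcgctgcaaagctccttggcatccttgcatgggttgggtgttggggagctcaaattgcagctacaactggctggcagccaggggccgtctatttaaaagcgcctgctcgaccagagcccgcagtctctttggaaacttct
Igfbp4: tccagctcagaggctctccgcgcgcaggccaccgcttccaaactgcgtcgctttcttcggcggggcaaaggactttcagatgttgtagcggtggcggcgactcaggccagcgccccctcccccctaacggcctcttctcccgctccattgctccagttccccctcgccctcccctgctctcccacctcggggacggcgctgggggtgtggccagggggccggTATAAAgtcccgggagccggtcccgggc
Igfbp3: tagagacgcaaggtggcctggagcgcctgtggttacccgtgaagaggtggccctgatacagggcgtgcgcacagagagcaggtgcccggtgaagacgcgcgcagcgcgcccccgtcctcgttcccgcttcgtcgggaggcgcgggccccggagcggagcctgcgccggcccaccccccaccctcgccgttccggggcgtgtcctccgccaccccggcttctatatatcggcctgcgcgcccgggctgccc
Igfbp6: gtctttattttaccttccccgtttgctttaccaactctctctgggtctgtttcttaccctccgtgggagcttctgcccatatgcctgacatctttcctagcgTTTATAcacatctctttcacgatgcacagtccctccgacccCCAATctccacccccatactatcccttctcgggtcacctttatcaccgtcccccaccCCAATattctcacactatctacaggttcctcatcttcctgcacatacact
Neither TGANTCA nor TTCNNNGAA was in any of the 4 windows; 6.7% and 7.0% of 32536 promoter windows of the same length held them. TATAAA was in the windows of *Igfbp4* and, on the other strand, *Igfbp6*, as in 12.3% of all windows. CCAAT occurred in that of *Igfbp6* 2 times, and 33.8% of all windows held it. The share of G and C was 58.8% for *Igfbp5*, 69.2% for *Igfbp4*, 73.2% for *Igfbp3* and 49.6% for *Igfbp6*. GENCODE M21 starts *Igfbp6* further downstream, at position 102144362.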

How the data were processed

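The authors aligned 5′Tag-seq reads, trimmed by Cutadapt 1.18, to mm10 RefSeq transcripts (Bowtie2 2.2.5, a single orientation) and deposited raw tag counts for each gene symbol; the treatment of multi-mapping tags and the use of molecular identifiers are not given in the sources used here. The 10 genes and all lists were chosen with earlier results of these data known. Tested genes had 10 tags or more in 3 or more libraries (R 4.3.3, edgeR 4.0.16, TMM, quasi-likelihood, Benjamini-Hochberg adjustment over 9334 genes). Named genes are the 10, all called genes of the lists with up to 3 others per list by level, fibroblast markers past the adjusted p alone (added after values were seen), and the 3 genes most alike in pattern; some list genes are not reported here. A floor of 3 tags stood at 2.56 to 2.93 CPM; floors cover counting error only. The study's methods give 3 mice, without saying which libraries came from which mouse. Same-numbered libraries deviated together from their group means (r = 0.232, 0.22 and 0.27 for replicates 1, 2 and 3), so the numbers were taken to pair them. The main test did not use this pairing. Its p-values, SEs and confidence intervals are from a fit on the group alone, except where a replicate block is named. With the block in edgeR, no call of the 78 listed genes tested changed. Scripts were tested on counts simulated with the same dispersion for every gene. The criteria were set after a first run, and recovery was required only for larger fold changes in genes with more tags. Genes with few tags were not covered by that requirement. Positions are from GENCODE M21, promoters from RefSeq (GRCm38.p6; all 10 genes matched).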

Additional observations from a re-analysis of the deposited data

How the results depend on the processing

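Of the 9 tested IGF genes, 8 kept their call in all 19 alternatives; the exception was *Igf2*, not called with DESeq2 and the replicate block. Over these alternatives the log2 fold change ranged from 2.89 to 3.33 for *Igfbp5*, 1.49 to 1.80 for *Igfbp4*, −2.70 to −1.91 for *Igfbp3*, −3.76 to −2.43 for *Igfbp6* and −2.38 to −1.38 for *Igf2*. Over all genes, 638 were called higher without the fold threshold (321 with it). DESeq2 with the replicate block called 378 lower (595 with edgeR's test), and the cause was not tested. Leaving out each library in turn gave 251 to 306 genes higher and 341 to 579 lower; with fewer libraries fewer genes were tested. The count of lower genes moved by over 1.5 times without IL-11- replicate 1 (341) and without IL-11- replicate 2 (355). With the replicate block, edgeR called 337 genes higher and 648 lower, and no call of the 78 listed genes tested changed. DESeq2 with the block, and the totals without ribosomal and mitochondrial RNA (321 higher, 592 lower), were chosen after seeing the data. *Igfbp2* had too few tags to be tested. Of the called IGF and protease genes *Stc2*, *Igf2* and *Stc1* had the highest SE (0.454, 0.445 and 0.425), and the part of depth in this was not tested. Without a filter on low genes *Cnn1*, *Kit*, *Notch3*, *Ndufa4l2* and *Gfap* were called lower, as were 4 red cell, 2 mesothelial, 2 more glia, 1 more pericyte and 1 receptor or adaptor gene.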
